A study of Populus tremula x Populus alba with 72 samples.

Results

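The 16 genes described here were chosen from leaf RNA-seq of hybrid poplar as those raised by 100 ppb ozone on day 13 in expanded and in growing leaves, with a small mean difference in expanded leaves on days 2 and 8. They were 16 of the 34699 genes listed and of the 23307 genes with a mean normalised count of at least 100 in any group. Each level is the mean over 4 libraries of log2(normalised count + 1), and each difference is 100 ppb minus control on that scale. The choice required a difference of at least 1 in both leaf positions on day 13, a difference within 0.5 of 0 in expanded leaves on day 2 and on day 8, and a change within 1 of 0 between day 13 and day 2 in growing control leaves. Of the 23307 genes, 2328 met the day 13 condition in expanded leaves and 1682 met it in both leaves. The day 2 condition then kept 395 genes, the day 8 condition 32, and the growing control condition 16, so an upper limit of 200 genes was not reached.

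The study exposed young trees of 1 micropropagated clone, INRAE 717-1B4 of Populus tremula x alba, in phytotronic chambers to charcoal-filtered air alone (control) or to the same filtered air with 80 or 100 ppb ozone added during the daytime. Expanded leaves and growing leaves were sampled on days 2, 8 and 13, which gives 18 groups of 4 libraries and 72 libraries in all. Between days within 1 ozone level, time and exposure run together, so leaf ageing and ozone cannot be told apart there. All trees share 1 genotype, so the values describe that clone. No label ties a replicate number to a tree or a chamber, and the p-values below therefore measure the spread between libraries only. Because each library is a bulk leaf sample, more cells of a type and more RNA per cell cannot be told apart. Each library had between 23214268 and 54320595 reads on genes.

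Ozone enters a leaf through the stomata and breaks down in the fluid around the cells into reactive oxygen species. Plants answer with antioxidant and defence genes, with ethylene, salicylic acid and jasmonic acid signalling, and, under long exposure, with early leaf senescence. Clone 717-1B4 is a widely used laboratory poplar. The files list genes by Potri identifier without names or products, so no function is given here, no list of pathway genes could be set beside the members, and the leaf labels were not checked against marker genes.

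The 16 members, from the largest to the smallest day 13 difference in expanded leaves, were Potri.006G202600, Potri.005G252100, Potri.010G132700, Potri.010G126300, Potri.007G048101, Potri.005G219300, Potri.002G193000, Potri.004G163300, Potri.019G023300, Potri.005G014900, Potri.019G019710, Potri.009G116300, Potri.019G014304, Potri.005G031899, Potri.005G122100 and Potri.010G111300. By identifier prefix, 5 began with Potri.005, 3 with Potri.010 and 3 with Potri.019, against 6.57%, 6.68% and 3.15% of the 27780 genes tested. These are the prefixes with the most members, and every other prefix among the members held 1. Whether the members gather under some prefixes was not tested.

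On day 13 the 16 genes were higher at 100 ppb than in filtered air in both leaf positions, as the choice required. The median difference was 1.39 (log2) in expanded leaves, a 2.62-fold difference, with a range of 1.04 to 3.13. In growing leaves the median was 1.17, a 2.26-fold difference, with a range of 1.02 to 3.76. The median over all 27780 genes tested was -0.02 in expanded leaves and -0.01 in growing leaves. In expanded leaves 14 of the 16 had all 4 libraries at 100 ppb above all 4 controls, as did 16.5% of the genes tested. In growing leaves 10 of the 16 did, beside 14.9% of the genes tested. These values chose the genes, so they are given as a description.

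Just inside the day 13 limit in expanded leaves were Potri.010G111300 at 1.04 and Potri.005G122100 at 1.05, and just outside were Potri.018G071400 at 0.99 and Potri.015G102301 at 0.98. Each gene named here as outside a limit met every other condition of the choice. Genes that failed other conditions as well may lie nearer to a limit. In growing leaves Potri.005G122100 at 1.02 was the lowest inside, and Potri.017G136266 at 0.99 the nearest outside. For the day 8 limit Potri.004G163300 at 0.49 was nearest inside and Potri.017G080200 at 0.50 nearest outside. For the day 2 limit the nearest were Potri.019G019710 at 0.48 inside and Potri.019G014372 at 0.61 outside, and for the growing controls Potri.002G193000 at 0.94 inside and Potri.019G020500 at 1.00 outside. Far more genes sat beyond the day 8 limit than within it. There were 162 genes that met every condition except that one, and 161 of them were higher at 100 ppb on day 8, with a median difference of 0.93. The other conditions, failed alone, removed 22 genes (day 2), 21 (day 13, expanded), 100 (day 13, growing) and 16 (growing controls).

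The libraries of day 8 differed. In expanded leaves on day 8, the median of the 16 genes relative to the control mean was 0.94, -0.31, -0.33 and 0.88 in replicates 1 to 4 at 100 ppb. Replicates 1 and 4 were above the control mean in 16 of 16 genes each, while replicates 2 and 3 were above it in 1 of 16 each. In replicate 4 all 16 genes exceeded every control, and in replicate 1 there were 13, beside 34.9% and 33.6% of the genes tested. In replicates 2 and 3 only 0 and 1 of the 16 did, beside 23.4% and 28.2%. The day 8 mean therefore lay near the controls through a pair of libraries above them and a pair below. The choice bounded that mean, so libraries on both sides of it are partly a result of the choice.

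Leaving out one of these libraries at a time moved the median day 8 difference of the 16 genes. It was 0.35 with all 4, 0.10 without replicate 1, 0.54 without replicate 2, 0.57 without replicate 3 and 0.09 without replicate 4. The number of genes the choice takes moved with it, to 38 without replicate 1, 7 without replicate 2, 7 without replicate 3 and 47 without replicate 4. In the same 4 libraries the other 1666 genes raised on day 13 in both leaves had medians of 2.16, 0.47, 0.67 and 2.36. Replicates 1 and 4 were thus the higher pair for those genes too. The day 8 condition bounds the mean of the 16, so the gap between the sets is fixed by the choice. What sets the libraries apart was not tested.

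On day 2 the expanded leaves at 100 ppb had medians over the 16 genes of 0.63, 0.04, 0.37 and -0.06 in replicates 1 to 4. Above all 4 controls were 15, 7, 10 and 4 of the 16 genes, beside 33.0%, 32.6%, 27.6% and 21.2% of the genes tested. The median difference was 0.31 on day 2, with 14 of 16 genes above 0, and 0.35 on day 8, with 15 of 16 above 0. None of the 16 had all ozone libraries above all controls on either day, a pattern seen in 5.2% of the genes tested on day 2 and in 10.2% on day 8. The choice bounded the mean difference on both days, so these counts are partly a result of it and are given as a description.

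**Figure D1:**
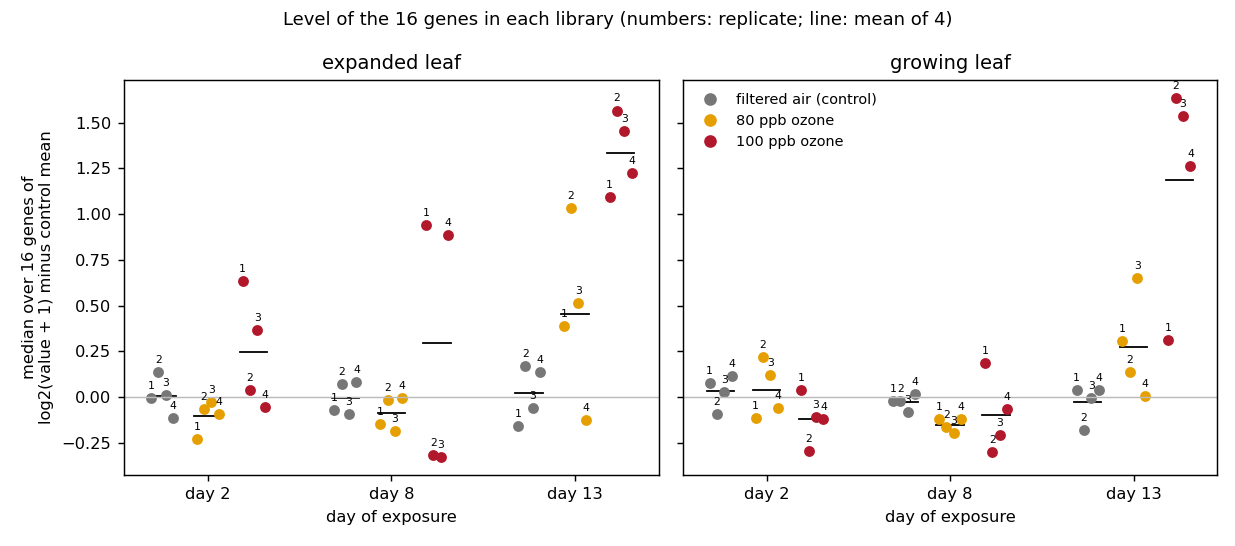
Level of the 16 genes in each of the 72 libraries, as the median over the genes of log2(normalised count + 1) minus the control mean of the same leaf and day (vertical axis, log2) by day of exposure (horizontal axis), for filtered air, 80 ppb and 100 ppb; digits give the replicate and lines the mean of 4. Expanded leaves at 100 ppb split on day 8 into 0.94 and 0.88 against -0.31 and -0.33, and on day 13 the 4 libraries ran from 1.09 to 1.57.

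On day 13 the 4 expanded libraries at 100 ppb had medians of 1.09, 1.57, 1.46 and 1.22, and each was above the control mean in all 16 genes. The expanded controls of day 13 had medians of -0.16, 0.17, -0.06 and 0.14 in replicates 1 to 4. Over the other 1666 genes raised on day 13 in both leaves, those controls had -0.92, 0.69, -0.27 and 0.51. Growing leaves at 100 ppb were less even than expanded leaves at 100 ppb over the 16 genes. Replicate 1 at 100 ppb had a median of 0.31, with 12 of 16 genes above the control mean, against 1.64, 1.53 and 1.26 in replicates 2, 3 and 4, with 16 of 16 each. Of the 16 genes, 4 were below the control mean in replicate 1. The other 1666 raised genes had a median of 0.87 in that library and of 2.98, 2.78 and 2.31 in the other 3. Without growing replicate 1 the median difference of the 16 genes was 1.42 in place of 1.17, and the choice took 34 genes. Without growing replicate 2 it took 7 genes, and without growing replicate 3 it took 9.

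Within groups the 16 genes were correlated from library to library. Over the 72 libraries, after taking out the mean of each group, the 120 pairs of members had a median correlation of 0.44, with a range of 0.06 to 0.89, and all 120 were above 0. The median over all pairs of the 27780 genes tested was -0.002, with 49.7% of them above 0. Of the 72 libraries, 36 chose the genes. In the 36 libraries with no part in the choice the median of the 120 pairs was 0.25, with a range of -0.27 to 0.77 and 105 above 0, beside a median of -0.001 over all pairs of genes tested. The points share a library and its scaling. Pairs among the other 1666 genes raised on day 13 in both leaves were not examined, so the correlation is not shown to be particular to the 16. Over all 72 libraries Potri.010G132700 had the highest median correlation with the other members, 0.64, and Potri.019G014304 the lowest, 0.30.

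Potri.006G202600 had the largest difference in both leaves and the widest spread. In expanded leaves on day 13 it had normalised counts of 131, 1475, 368 and 87.6 at 100 ppb, against 12.8, 78.2, 18.7 and 49.0 in controls. The lowest ozone library lay just above the highest control, and replicate 2 was high in both groups. In growing leaves on day 13 it had 12.3, 228, 45.8 and 14.9 at 100 ppb, against 2.96, 7.81, 0.948 and 0 in controls. Those growing controls held 12 reads together, so the difference of 3.76 there depends on the pseudocount of 1. In expanded leaves on day 8 it had 62.5, 2.27, 1.55 and 135 at 100 ppb, against 5.20, 17.0, 12.2 and 59.8 in controls. The 2 highest and the 2 lowest of those 8 libraries were all ozone libraries. By day, the expanded controls averaged 2.69, 23.6 and 39.7 on days 2, 8 and 13, a gain of 3.48 (log2) between day 13 and day 2.

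Potri.005G252100 followed, with differences of 2.02 in expanded and 1.26 in growing leaves. Expanded leaves on day 13 had 141, 484, 227 and 168 at 100 ppb, against 49.5, 86.5, 48.0 and 45.1 in controls. The groups did not overlap, and replicate 2 was the highest of each. In growing leaves on day 13 it had 58.9, 162, 112 and 96.6 at 100 ppb, against 32.5, 36.1, 61.6 and 40.5 in controls. There replicate 1 at 100 ppb fell below the highest control. Its growing controls were lower on day 13 than on day 2, by 0.59, at 42.7 ± 13.0 against 67.7 ± 26.9 (SD, n = 4).

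Potri.005G031899 had the second largest difference in growing leaves, 1.46, with 1.13 in expanded leaves. Growing leaves on day 13 had 173, 496, 459 and 390 at 100 ppb, against 137, 92.7, 129 and 162 in controls. The groups did not overlap, and replicate 1 lay closest to the controls. Expanded leaves on day 13 had 321, 496, 362 and 320 at 100 ppb, against 149, 211, 147 and 170 in controls, again without overlap.

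The other 6 genes that the naming rule picks entered through the tests below. Among them, Potri.010G126300 had 9776, 8989, 9519 and 12959 at 100 ppb in expanded leaves on day 13, against 3285, 2323, 3976 and 3625 in controls. Every ozone library was more than the highest control. Potri.002G193000 had 333, 413, 409 and 438 at 100 ppb, against 60.5, 446, 122 and 132 in controls. Control replicate 2 was above all 4 ozone libraries, so the groups overlapped. The only other member that overlapped there was Potri.005G219300, with 160, 170, 257 and 357 at 100 ppb, against 45.8, 165, 50.5 and 87.9 in controls. It lies outside the naming rule, as do Potri.010G132700, Potri.007G048101, Potri.004G163300, Potri.019G023300, Potri.019G019710 and Potri.019G014304, which are named to account for every member or for values that were seen.

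**Figure D2:**
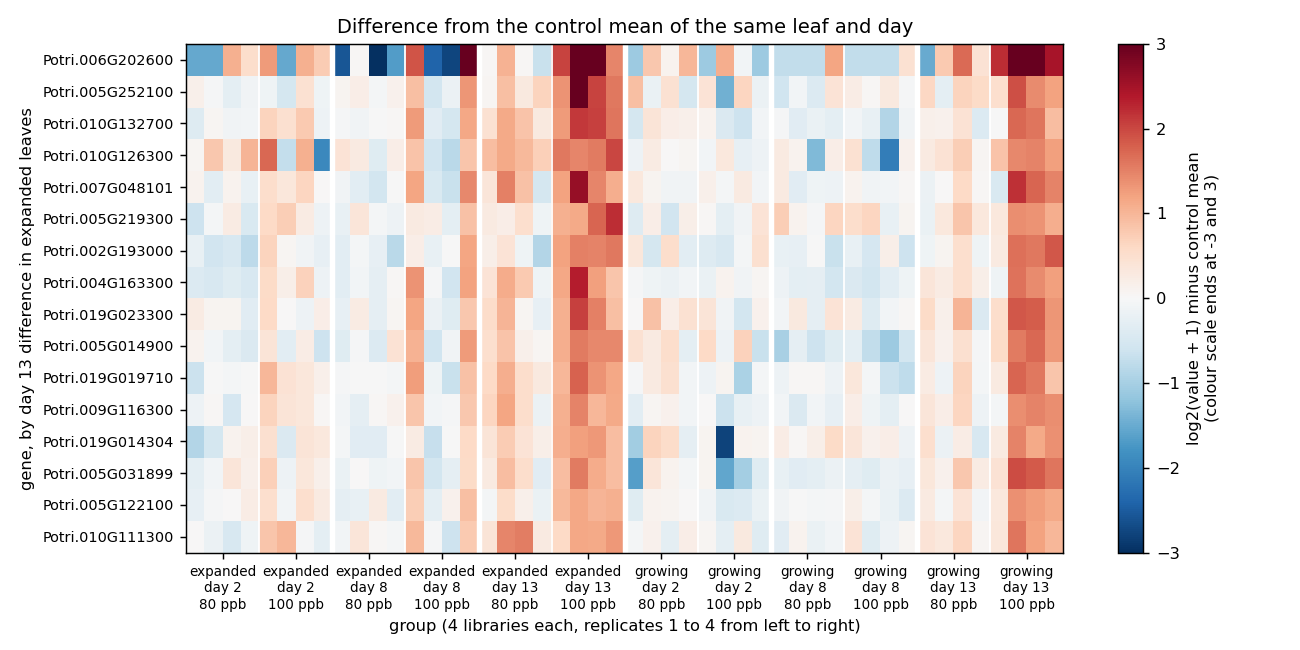
Difference of each ozone library from the control mean of the same leaf and day (colour, log2, scale ends at -3 and 3) for the 16 genes (rows, by day 13 difference in expanded leaves) in 12 groups of 4 libraries, replicates 1 to 4 from left to right. In expanded leaves at 100 ppb on day 8 the outer pair of columns is above the controls and the inner pair below, and in growing leaves at 100 ppb on day 13 the first column is the palest of its group.

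At 80 ppb the medians of the 16 genes were close to controls on days 2 and 8 and higher on day 13. In expanded leaves the median difference of 80 ppb from control was -0.16, -0.07 and 0.46 on days 2, 8 and 13, with 3, 3 and 15 of 16 genes above 0. Single genes lay further away, and on day 8 in expanded leaves they ran from -1.81 to 0.13. The lowest there was Potri.006G202600, with 1.93, 16.6, 1.11 and 4.39 at 80 ppb, against 5.20, 17.0, 12.2 and 59.8 in controls. The groups overlapped. In growing leaves the median was 0.02, -0.18 and 0.29, with 9, 3 and 16 of 16 above 0. In expanded leaves on day 2, all 4 libraries at 80 ppb were below all 4 controls in 2 of the 16 genes, Potri.002G193000 and Potri.004G163300, beside 2.2% of the genes tested. These comparisons share their controls with the choice of the genes, or in growing leaves on day 8 are tested below, so no test is given for them here. On day 13 the median over all genes tested was -0.01 in both leaves, with 47.8% of them above 0 in expanded and 45.5% in growing leaves.

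The 80 ppb libraries of day 13 differed from each other. In expanded leaves the medians over the 16 genes were 0.39, 1.03, 0.52 and -0.12 in replicates 1 to 4, so replicate 2 was near the lowest 100 ppb library and replicate 4 was below the control mean. In replicate 2 there were 13 genes above all 4 controls, beside 22.7% of the genes tested, and in replicate 4 there were 3, beside 11.3%. All 4 libraries exceeded all 4 controls in 2 of the 16 genes, beside 2.42% of the genes tested. In growing leaves the medians were 0.31, 0.14, 0.65 and 0.01, and no gene had all 4 libraries above all controls, beside 2.54% of the genes tested. Leaving out each library in turn gave a median difference of 0.28 to 0.56 in expanded and of 0.12 to 0.32 in growing leaves.

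The 2 members whose 80 ppb libraries all exceeded the expanded controls of day 13 were Potri.010G126300 and Potri.019G019710, named for that reason after their values were seen. Potri.010G126300 averaged 3302 ± 711 in controls, 6228 ± 751 at 80 ppb and 10311 ± 1796 at 100 ppb (SD, n = 4 each). Potri.019G019710 averaged 193 ± 48.7 in controls, 297 ± 72.5 at 80 ppb and 479 ± 118 at 100 ppb. The 1 member below 0 at 80 ppb in expanded leaves on day 13 was Potri.002G193000, at -0.10, with 190 ± 173 in controls, 142 ± 49.2 at 80 ppb and 398 ± 45.3 at 100 ppb. Its controls spread over the range of the 80 ppb libraries.

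**Figure D3:**
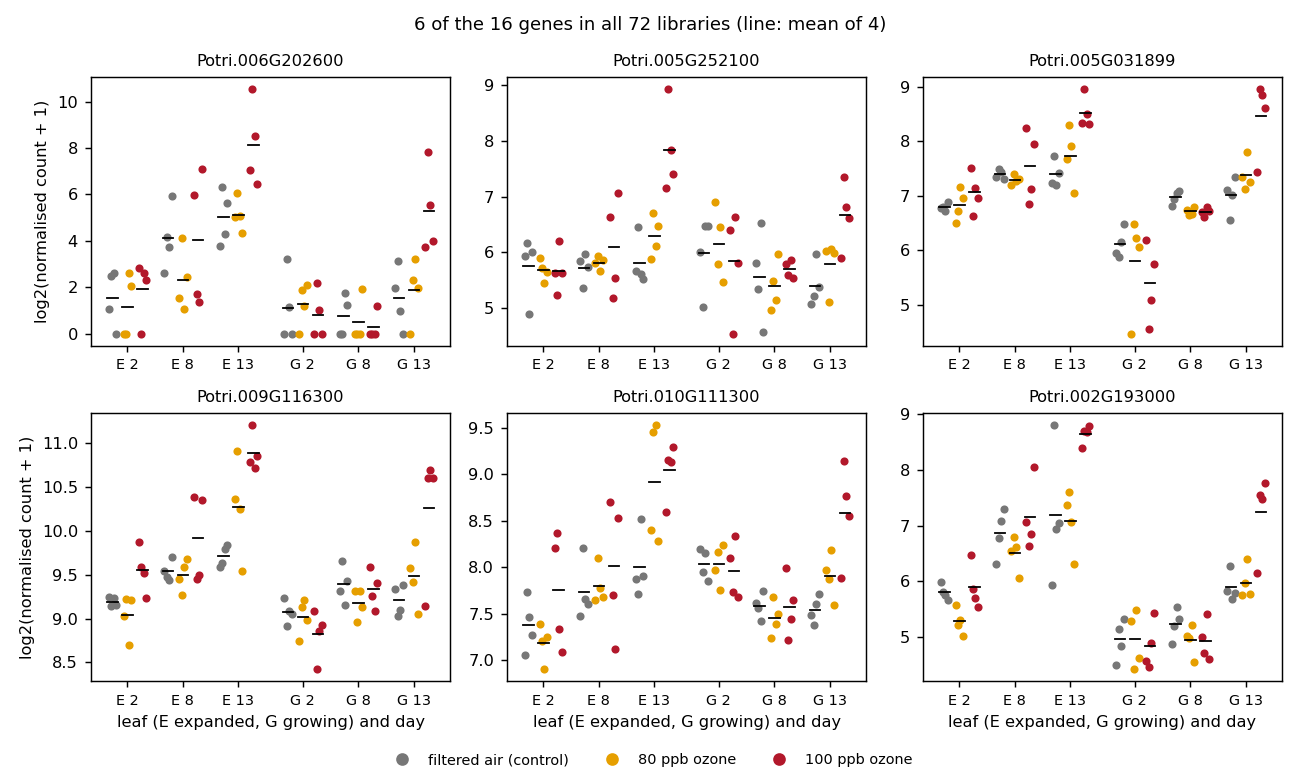
Level of 6 of the 16 genes as log2(normalised count + 1) (vertical axis) in all 72 libraries by leaf position (E expanded, G growing) and day (horizontal axis), for filtered air, 80 ppb and 100 ppb; lines are means of 4. In Potri.002G193000 an expanded control of day 13 stands at the level of the 100 ppb libraries, and in Potri.005G031899 the growing 100 ppb libraries of day 13 lie above all controls.

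Between libraries that had no part in the choice, 7 contrasts were tested with limma over all 27780 genes. Only the compared means are free of the choice. The spread of each gene was estimated over all 72 libraries, those that chose the genes among them. In growing leaves on day 8, none of the 16 genes differed between 100 ppb and control at an adjusted p under 0.05. The median difference was -0.20, with 3 of 16 above 0, and the smallest adjusted p among them was 0.699 (limma, Benjamini-Hochberg). The same test called 0.0288% of all genes higher and 0.0108% lower, 11 genes in all, and 1644 genes had an unadjusted p under 0.05. Of the 16, 0 were higher and 1 was lower at an unadjusted p under 0.05, and both edgeR and DESeq2 also called 0.

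That 1 gene was Potri.005G014900, with 200, 147, 114 and 167 in growing leaves at 100 ppb on day 8, against 305, 241, 215 and 226 in controls. All ozone libraries were below all controls, with a difference of -0.66 ± 0.28 (SE) and an adjusted p of 0.699. Complete separation downward also held for Potri.004G163300 and Potri.005G031899, so for 3 of the 16 genes, beside 3.19% of the genes tested. At 80 ppb it was again 3 of 16, beside 2.39%, against the same controls, and 0 genes were called higher or lower in the whole table (limma, 1240 at an unadjusted p under 0.05). The median of the 16 at 80 ppb was -0.18, with 1 lower and 0 higher at an unadjusted p under 0.05, and edgeR and DESeq2 called 0. In growing leaves on day 2, 100 ppb against 80 ppb also gave 0 calls by limma, edgeR and DESeq2 among the 16, with a median of -0.22, a smallest adjusted p of 0.676 and 0 at an unadjusted p under 0.05. Over the whole table limma called 0 of the 27780 genes in that contrast, and 2267 had an unadjusted p under 0.05.

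In growing leaves at 100 ppb, 5 of the 16 genes rose and 1 fell on day 8 relative to day 2. The limma test called 28.2% of all genes higher and 28.9% lower in that contrast. Potri.005G031899 had 104, 96.9, 110 and 105 on day 8, against 72.4, 22.3, 33.0 and 53.0 on day 2. The days did not overlap, with a change of 1.32 ± 0.30 (SE) and an adjusted p of 0.000146 by limma. Potri.005G014900 averaged 157 ± 36.2 on day 8 and 101 ± 41.6 on day 2 (SD, n = 4 each), a change of 0.71 with an adjusted p of 0.0256 by limma that exceeded 0.05 in 7 of 19 alternatives, up to 0.187. Among these were the fits without day 8 replicate 1 or 4 and without day 2 replicate 2 or 4.

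Of the others called there, Potri.005G122100 rose by 0.62 (adjusted p = 0.00238, limma). Potri.009G116300 rose by 0.51 (adjusted p = 0.0389, limma), a call lost in 6 of 19 alternatives, among them without day 8 replicates 1, 2 and 4 and without day 2 replicates 2 and 3, with adjusted p up to 0.183. Potri.019G014304 rose by 1.71 (adjusted p = 7.15e-05, limma) with a level of 83.4 ± 12.4 on day 8, against 32.0 ± 18.2 on day 2. Its day 2 replicate 2 was 4.70 and the other 3 lay between 40.9 and 41.3, and without that library the change was 0.99 with an adjusted p of 0.00604. Potri.010G126300 had 3437, 1482, 597 and 2728 on day 8, against 4355, 5749, 3865 and 4183 on day 2. All day 8 libraries were lower, with a change of -1.40 ± 0.42 (SE) and an adjusted p of 0.00349 by limma, and without day 8 replicate 3 the change was -0.90 with an adjusted p of 0.0645.

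The median change over the 16 genes in this interval was 0.27 at 100 ppb, with 9 above 0, and 0.29 in growing controls, with 11 above 0. In the same interval the growing controls changed by 1.49 in Potri.005G014900, 0.86 in Potri.005G031899, 0.95 in Potri.019G014304, 0.45 in Potri.005G122100, 0.32 in Potri.009G116300 and -0.88 in Potri.010G126300. All 6 genes called at 100 ppb thus moved in the same direction in controls by their means. The growing controls of day 2 chose the genes, so the difference between these changes was not tested.

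At 80 ppb in expanded leaves, all 16 genes were higher on day 13 than on day 8 by their means, with a median change of 0.55. Of these, 2 rose at an adjusted p under 0.05 and 0 fell, where limma called 2.81% of all genes higher and 6.53% lower. A further 5 had an unadjusted p under 0.05, which makes 7 of 16, all of them higher. Of the 27780 genes tested, 7214 had an unadjusted p under 0.05 in either direction, so these counts do not match in direction. Potri.010G111300 had 336, 701, 737 and 309 on day 13, against 199, 272, 218 and 203 on day 8. The days did not overlap, with a change of 1.12 ± 0.26 (SE) and an adjusted p of 0.00404 by limma. Potri.009G116300 had 1317, 1917, 1217 and 742 on day 13, against 699, 613, 767 and 815 on day 8. Day 13 replicate 4 fell among the day 8 values, and the change was 0.77 ± 0.22 (SE) with an adjusted p of 0.0169 by limma. Without day 13 replicate 2 that change was 0.56 with an adjusted p of 0.167, and without day 8 replicate 2 the adjusted p was 0.0808.

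The count of 2 is small and moved with the libraries and the tool. It was 1 without day 13 replicate 2, 5 without day 13 replicate 4, 4 by edgeR and by DESeq2, and 5 with the libraries scaled to equal totals. Leaving the other groups out of the fit gave 3 calls, none of them these 2 genes, whose adjusted p were then 0.0605 and 0.0946. Over the same interval the median change was 0.07 in controls, 0.55 at 80 ppb and 1.03 at 100 ppb, with 11, 16 and 16 of 16 above 0. The control and 100 ppb libraries chose the genes, so those values are given without a test.

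In growing leaves at 80 ppb, 14 of the 16 genes had a higher mean on day 13 than on day 8, with a median change of 0.43. The test called 2 higher and 0 lower, where 21.7% of all genes were called higher and 21.6% lower. Potri.005G122100 had 973, 776, 1070 and 756 on day 13, against 624, 657, 641 and 646 on day 8. All day 13 libraries were higher, with a change of 0.46 ± 0.18 (SE) and an adjusted p of 0.0292 by limma, lost without day 8 replicate 1 (0.0588) or 3 (0.0512) and without day 13 replicate 1 (0.0782) or 3 (0.126). Potri.002G193000 averaged 63.1 ± 14.3 on day 13 and 30.2 ± 5.67 on day 8, a change of 1.03 with an adjusted p of 0.0109 by limma and of 0.0527 without day 13 replicate 3. Without that library 0 of the 16 were called, and 1 was called without day 8 replicate 1, day 8 replicate 3 or day 13 replicate 1. By edgeR and by DESeq2 there were 4, and with the libraries scaled to equal totals there were 8. Growing controls changed by a median of 0.12 between those days, with 10 of 16 genes above 0. In those controls Potri.002G193000 changed by 0.66 and Potri.005G122100 by 0.27. At 100 ppb the median change in growing leaves was 1.42, with 16 of 16 above 0. The day 13 libraries of both groups chose the genes, so these values are given without a test.

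At 80 ppb on day 13, all 16 genes had lower means in growing than in expanded leaves, with a median difference of -0.58. Of these, 6 were lower at an adjusted p under 0.05 and 0 higher, where limma called 13.9% of all genes lower and 18.1% higher. With the libraries scaled to equal totals, 10 of the 16 were called. Potri.010G111300 had 249, 233, 290 and 192 in growing leaves, against 336, 701, 737 and 309 in expanded leaves. The positions did not overlap, with a difference of -1.01 ± 0.26 (SE) and an adjusted p of 0.00238 by limma. Potri.002G193000 had 53.1, 62.1, 83.6 and 53.7 in growing leaves, against 164, 194, 133 and 78.5 in expanded leaves. Expanded replicate 4 fell below the highest growing library, and the difference was -1.11 ± 0.34 (SE) with an adjusted p of 0.00953 by limma.

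The other 4 called genes were Potri.006G202600 (-3.26, adjusted p = 0.00824, limma), Potri.005G219300 (-1.02, adjusted p = 0.00804), Potri.019G019710 (-0.84, adjusted p = 0.0181) and Potri.009G116300 (-0.78, adjusted p = 0.0042). Potri.006G202600 held 15 reads over the 4 growing libraries, so its difference depends on the pseudocount, and without growing replicate 1 its adjusted p was 0.0549. Without expanded replicate 2 the count of 6 fell to 3, since Potri.002G193000 (0.0529), Potri.019G019710 (0.0901) and Potri.009G116300 (0.0543) then had adjusted p over 0.05. Potri.019G019710 also had 0.0639 without growing replicate 2 and 0.0649 without growing replicate 4. The median difference of growing from expanded leaves on day 13 was -0.54 at 100 ppb and -0.39 in controls, with 16 and 13 of 16 genes below 0. Those libraries chose the genes, and whether the difference between leaf positions changes with ozone was not tested.

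For the change between day 13 and day 8 at 80 ppb, no member passed an adjusted p under 0.05 in the comparison of growing with expanded leaves. The smallest adjusted p was 0.164 (limma interaction, added after the other values were known), for Potri.019G014304 with -1.01 ± 0.52 (SE). At an unadjusted p under 0.05 there were 0 higher and 0 lower among the 16, and this contrast called 10.2% of all genes higher and 9.32% lower. Of the 27780 genes tested, 9125 had an unadjusted p under 0.05 in either direction.

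**Figure D4:**
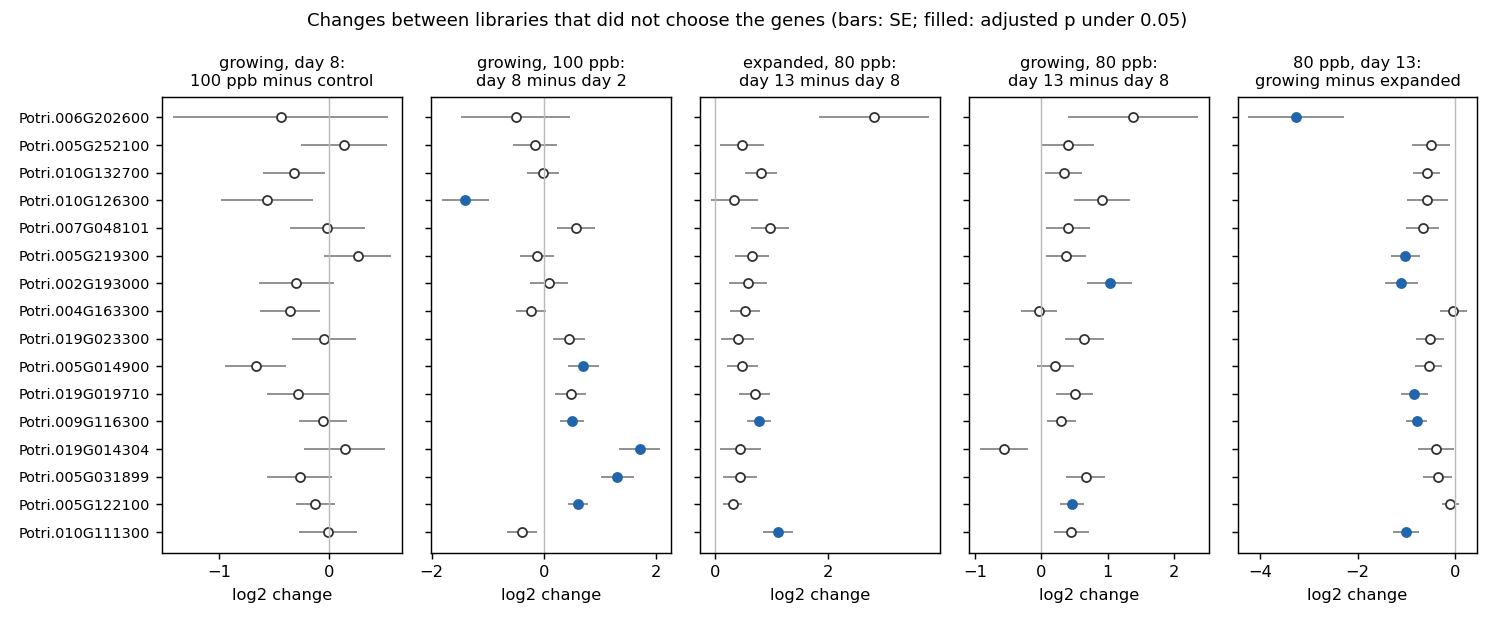
Change of each of the 16 genes (rows) in 5 of the 7 tested contrasts, as log2 change (horizontal axis) with bars of 1 SE either side; filled points have an adjusted p under 0.05 by limma. In the contrast of growing minus expanded leaves at 80 ppb all 16 points are below 0 and 6 are filled, and in growing leaves on day 8 none is filled.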

How the data were processed

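The deposited table holds the authors' normalised signal, that is, gene counts divided by a size factor, for 34699 identifiers in 72 libraries, and all 72 columns were used. Per the submitters' processing notes, the tools named were TopHat2 2.12, featureCounts (Subread 1.6.1) and DESeq2 1.24.0, and the sources used here name no genome build. Libraries were stranded and poly(A)-selected, per the labels' protocols. Whether counting used strand, and how reads of near-identical genes were assigned, is not given, so such genes are uncertain. Whole reads were recovered from the steps of each column, and 100% of the values came out whole within 0.01 reads, with a largest deviation of 0.000606. Of the genes listed, 1923 had no read.

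The 27780 genes with 10 or more in 4 or more libraries, all 16 members among them, were fitted with limma 3.58.1 in R 4.3.3 on log2(value + 1), with 1 mean per group over all 72 libraries, a trend in the variance, 2-sided tests and Benjamini-Hochberg adjustment over all genes, called at 0.05. Fold changes of low genes are understated on that scale. Alternatives were edgeR 4.0.16 and DESeq2 1.42.0 on the recovered reads, a pseudocount of 8, other scalings, other filters, the compared libraries alone, a replicate block and leaving out each library. Other tools were Python 3.11.15, numpy 2.4.6, pandas 2.3.3 and matplotlib 3.10.9. The scripts were tested on simulated data.

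The members, lists and tests were chosen with earlier results of these data known. The contrasts that chose the genes, and those at 80 ppb that share their controls, carry no test. Genes described in detail are the 2 of largest day 13 difference in each leaf position and, per tested contrast, up to 2 called members of largest change in each direction with a mean of at least 100 in the higher group. Lists of pathway genes and cell type markers by description could not be made, since the identifiers carry no descriptions.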

Additional observations from a re-analysis of the deposited data

Results flagged for a closer look

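Among 288 combinations of a member and a group of 4 libraries and 18 groups of the median over members, 14 had 1 library far from the other 3, with a gap beyond Dixon's 95% critical value for 4 samples. Chance flags about 1 in 20 groups, which is near the share found. Values are normalised counts.

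Libraries at 100 ppb that stood apart were growing day 13 replicate 1 for Potri.009G116300, at 566 below the others, and day 2 replicate 2 for Potri.019G014304, at 45.3 in expanded and 4.70 in growing leaves, both the lowest of their group. Potri.006G202600 was listed at 0 in the other 3 growing libraries of day 8, with 1.30 in replicate 4 at 100 ppb and 2.82 in replicate 4 at 80 ppb. The second of these rests on 3 reads.

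At 80 ppb, low libraries were growing day 13 replicate 2 for Potri.005G252100 (33.5), growing day 8 replicate 3 for Potri.010G126300 (996) and expanded day 2 replicate 1 for Potri.019G019710 (72.3). Expanded day 8 replicate 3 was the high one for Potri.005G122100 (1015).

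Among controls, expanded day 13 replicate 2 was high for Potri.005G252100 (86.5) and growing day 8 replicate 4 was high for Potri.010G126300 (2944). Expanded day 13 replicate 1 was low for Potri.019G019710 (120), expanded day 8 replicate 3 was low for Potri.004G163300 (6720) and growing day 2 replicate 2 was low for Potri.005G122100 (381).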

How the results depend on the processing

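The choice of the genes depended most on single libraries, with 7 to 47 genes taken when each library was left out in turn, of which 6 to 16 were among the 16. Under a pseudocount of 8 it took 20 genes (14 shared), with TMM scaling 18 (16 shared), with equal library totals 16 (11 shared), by group medians 21 (12 shared) and with a minimum mean of 50 it took 17 (16 shared). Leaving out each compared library in turn gave 3 to 7 called members for growing against expanded leaves at 80 ppb on day 13, 1 to 5 for day 13 against day 8 at 80 ppb in expanded leaves, 0 to 3 in growing leaves, 4 to 6 for day 8 against day 2 at 100 ppb in growing leaves, and 0 to 0 in the other 3 contrasts. Scaling to equal totals gave 10, 5 and 8 calls in the first 3 of these, and it put the median of all genes at -0.27, 0.14 and 0.25 there and at -0.15 in the fourth, where it left 4 calls. For day 13 against day 8 at 80 ppb, edgeR and DESeq2 gave 4 calls in expanded and 4 in growing leaves, and a fit on the compared libraries alone gave 4 in growing leaves. None of these changed the sign of a called gene, and the cause of the moves was not tested.

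In none of the contrasts did all 4 same-numbered pairs of libraries have a correlation of their deviations over 0.1. Over the 7 contrasts these correlations ran from -0.21 to 0.35. For 100 ppb against 80 ppb in growing leaves on day 2 they were 0.07, 0.33, 0.35 and 0.19 in replicates 1 to 4. Whether same-numbered libraries share a tree, a chamber or a batch was not tested. With a replicate block the called members were 0, 0, 0, 6, 3, 2 and 6 over the 7 contrasts in the order of the report, against 0, 0, 0, 6, 2, 2 and 6 without it, and not every library correlated best with its own number.

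At these depths the members with few reads, such as Potri.006G202600 in growing leaves, limit what can be compared.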
